A study of Homo sapiens with 26 samples.

Results

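The response of NCI-H1975 (H1975) cells to Omomyc was compared with that of NCI-H1299 (H1299) cells, and the genes described are those whose responses differed or ran in opposite directions. For each gene the response difference was the change with Omomyc in H1975 minus the change with Omomyc in H1299, computed on the deposited log2 values of 19 of the 26 microarrays of the series. The 4 groups were H1975 with PBS (4 arrays), H1975 with Omomyc (5 arrays), H1299 with PBS (5 arrays) and H1299 with Omomyc (5 arrays). Both are established human lung cancer cell lines, H1975 labelled as an adenocarcinoma and H1299 as a carcinoma of the lung, and H1975 is known for a mutant epidermal growth factor receptor. Cells were grown in serum-containing medium and received Omomyc at 12.8 µM or the vehicle, labelled PBS (phosphate-buffered saline), for a time that the labels do not state. No other protein served as a control, so what is specific to Omomyc and what any protein would do cannot be told apart. The arrays of a group are labelled as biological replicas with no word on separate cultures, so a p-value here is set against array spread that may be technical.

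Omomyc is a small protein built on the part of MYC, a transcription factor, through which MYC forms dimers. It pairs with MYC's partner MAX and with itself, and in doing so competes with MYC for E-box DNA. MYC drives growth genes, among them those for ribosomes, nucleotides and amino acid uptake. Several of the genes whose responses differed belong to the integrated stress response, in which phosphorylation of the translation factor eIF2 raises translation of ATF4. ATF4 then activates genes for amino acid synthesis, amino acid import and tRNA charging, together with the regulators CHOP (gene DDIT3) and TRIB3. Amino acid uptake is thus described for both MYC and ATF4, and which of them acted here was not tested.

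All 17687 named genes were tested, and a gene was called where limma's p, adjusted by the Benjamini-Hochberg method, was under 0.05. For some lists the members at an unadjusted p under 0.05 are counted too. The share of all genes at that threshold is not given, so those counts have no background to be read against. Levels and differences are on the log2 scale, on which a difference of 1 is a 2-fold change. The value after ± is the standard error of the fit for a difference and the SD over arrays for a level. The 23 background probe sets of the array had mean levels of 2.34 to 6.69, and a level at or below the upper value is called background. Sorted values of whole arrays fell into 3 clusters of arrays, each of which held all 4 groups. The labels name no batch, and what the clusters stand for is not given. Of 8 epithelial marker genes, 6 (EPCAM, CDH1, KRT7, KRT19, CLDN4 and ELF3) were at background in both H1299 groups and 2 (CDH1 and ELF3) in both H1975 groups. The leukocyte genes PTPRC, CD3E and LYZ and the fibroblast genes DCN, LUM and PDGFRA were at background in all 4 groups. In bulk RNA, fewer cells with a transcript and less of it per cell cannot be told apart.

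The responses of the lines differed for 1009 genes (5.7% of those tested). The difference was above 0 for 462 genes (2.61%), which means a higher response in H1975, and below 0 for 547 (3.09%). Which sign was the more frequent depended on the setting: with each array centred on its median 685 were above 0 and 585 below, and when single arrays were left out the counts went from 340 and 571 (without H1975 PBS replicate 4) to 530 and 475 (without H1975 Omomyc replicate 5). Taken on its own, the H1975 response was called for 2095 genes (11.8%), 985 that rose (5.57%) and 1110 that fell (6.28%). In H1299 it was called for 1569 genes (8.87%), 770 that rose (4.35%) and 799 that fell (4.52%). Of the 1009 genes, 503 had a called response in H1975 and not in H1299, 194 of which rose and 309 fell. A further 322 had a called response in H1299 and not in H1975, 160 that rose and 162 that fell. Only 23 moved the same way in both lines to a different extent, and 63 were called in neither line. Every one of the 1009 was also called, in the same direction, when the cluster was fitted as a block, and 1008 had 1 sign of the difference in all 3 clusters taken alone. The clusters are parts of the arrays that chose these genes, so this is no independent check. In cluster 1 every group but H1975 with Omomyc had 1 array, and in cluster 3 both H1975 groups had 1. For 410 of the 1009 genes at least 1 group was at background, and for 101 all 4 groups were.

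In 98 genes (0.554%) the response was called in both lines with opposite signs. With Omomyc 62 of these rose in H1975 and fell in H1299, and 36 fell in H1975 and rose in H1299. All 98 stayed opposite with the cluster as a block. They are 98 of the 518 genes with a called response in both lines.

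**Figure D1:**
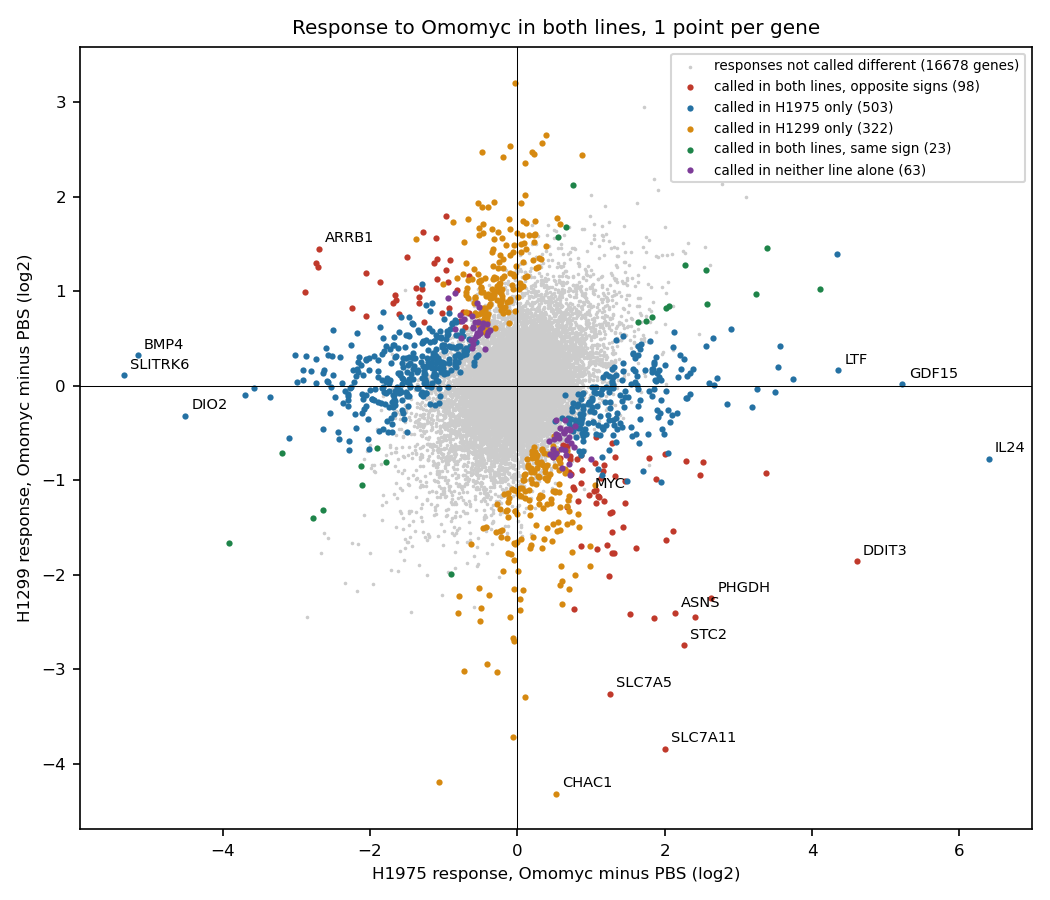
Response to Omomyc in H1975 (horizontal axis, log2 Omomyc minus PBS) against that in H1299 (vertical axis, log2), 1 point per gene for 17687 genes; coloured points are the 1009 genes with a called difference, by the lines in which the response itself was called. The 62 red points at the lower right rose in H1975 and fell in H1299 (DDIT3, SLC7A11, STC2, PHGDH and MYC among them), and the 36 at the upper left, such as ARRB1, did the opposite.

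Promoter windows are shown for the opposite genes that rose in H1975 and hold the core of the amino acid response element, the site that ATF4 with a C/EBP partner is known to bind. The core was searched as TGATGNAA on both strands, so that a window may show its reverse complement, and the windows run from 250 bases before to 50 after the transcript start in RefSeq (GRCh38.p14), 5′ to 3′ on the gene's strand. Capitals mark the match.
ASNS, minus strand, chr7:97872359-97872658: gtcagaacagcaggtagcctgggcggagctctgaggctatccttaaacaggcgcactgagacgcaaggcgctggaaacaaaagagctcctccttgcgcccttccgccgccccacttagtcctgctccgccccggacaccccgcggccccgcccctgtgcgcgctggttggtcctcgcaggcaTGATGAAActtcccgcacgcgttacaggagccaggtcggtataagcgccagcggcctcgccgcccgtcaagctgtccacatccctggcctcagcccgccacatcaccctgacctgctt
AARS1, minus strand, chr16:70289457-70289756: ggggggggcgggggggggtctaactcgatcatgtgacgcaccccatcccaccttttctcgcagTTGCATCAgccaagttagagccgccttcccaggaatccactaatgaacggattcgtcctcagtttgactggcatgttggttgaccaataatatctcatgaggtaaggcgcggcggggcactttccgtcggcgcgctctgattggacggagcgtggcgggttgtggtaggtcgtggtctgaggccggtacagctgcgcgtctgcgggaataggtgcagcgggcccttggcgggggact
SLC3A2, plus strand, chr11:62881449-62881748: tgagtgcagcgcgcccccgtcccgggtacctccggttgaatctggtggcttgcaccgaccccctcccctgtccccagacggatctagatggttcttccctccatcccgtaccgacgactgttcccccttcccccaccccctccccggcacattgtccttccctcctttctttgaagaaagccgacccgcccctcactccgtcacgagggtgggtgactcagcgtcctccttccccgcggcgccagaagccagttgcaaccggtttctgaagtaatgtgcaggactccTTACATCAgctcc
SLC7A1, minus strand, chr13:29595639-29595938: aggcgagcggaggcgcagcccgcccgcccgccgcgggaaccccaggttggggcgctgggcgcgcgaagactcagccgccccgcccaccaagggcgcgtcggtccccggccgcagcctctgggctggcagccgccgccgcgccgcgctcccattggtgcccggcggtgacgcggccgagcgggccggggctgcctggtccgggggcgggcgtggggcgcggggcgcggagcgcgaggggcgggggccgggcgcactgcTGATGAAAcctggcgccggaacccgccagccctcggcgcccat
CARS1, minus strand, chr11:3057374-3057673: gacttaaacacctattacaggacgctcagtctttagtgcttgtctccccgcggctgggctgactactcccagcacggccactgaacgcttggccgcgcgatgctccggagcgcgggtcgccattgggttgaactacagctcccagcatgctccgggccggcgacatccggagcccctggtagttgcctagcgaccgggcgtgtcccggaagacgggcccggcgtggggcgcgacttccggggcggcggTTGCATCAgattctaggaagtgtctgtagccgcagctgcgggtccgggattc

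A window was given for 14250 genes. The core was present in 359 of them (2.52%), in 5 of the 51 opposite genes with a window that rose in H1975 (9.80%) and in 0 of the 25 that fell there. By gene list it was present in 5 of 12 tRNA synthetase windows (41.7%), 3 of 10 for amino acid and folate synthesis (30%), 3 of 12 for amino acid transporters (25%) and 2 of 13 for ATF4 and CHOP regulators (15.4%). The E-box CACGTG, the site of MYC with MAX, was present in 8.69% of all windows, in 4 of the 51 (7.84%) and in 1 of the 25 (4.00%). By gene list the E-box was present in 2 of 10 windows for amino acid and folate synthesis (20%) and 2 of 12 for amino acid transporters (16.7%). For tRNA synthetases it was in 1 of 12 (8.33%), and for ATF4 and CHOP regulators in 1 of 13 (7.69%). Over all called genes with a window, the E-box share was 10.0% of 390 above 0 and 11.9% of 437 below 0, and the share with the amino acid response core was 4.1% and 1.6%. The 2 motifs can share only the letters TG at an end. A match describes letters in a window and shows no binding, and the windows of DDIT3, CEBPG, DDIT4 and GARS1 held no match to the core.

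The ATF4 and CHOP regulators differed more between the lines than any other list by median. Of 15 measured members 11 had a called difference in limma, and all 11 were higher in H1975 (at an unadjusted p under 0.05, 14 were higher and 0 lower), with a list median of 2.62 against 0.0077 over all genes. In H1975 10 members rose and 0 fell (5.57% and 6.28% of all genes), and in H1299 1 rose and 7 fell (4.35% and 4.52%). These shares of all genes also stand beside the response counts of the lists below. Beside their called differences stand 2.61% of all genes above 0 and 3.09% below. The list median of the difference was 2.34, 2.77 and 2.52 in clusters 1, 2 and 3 alone.

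DDIT3, the gene of the stress regulator CHOP (probe set TC1200010968.hg.1), was at 6.11, 6.09, 6.04 and 6.13 on the H1975 PBS arrays and at 11, 10.80, 10.36, 11.08 and 10.24 on the H1975 Omomyc arrays. In H1299 it was at 9.11, 9.52, 9.54, 8.44 and 8.90 with PBS and at 7.40, 7.48, 7.62, 7.01 and 6.72 with Omomyc. The PBS and Omomyc arrays did not overlap in either line, and the line that was low with PBS was the high one with Omomyc. The gene rose by 4.61 ± 0.25 in H1975 and fell by 1.85 ± 0.23 in H1299, a difference of 6.46 ± 0.34 (adjusted p = 2.46e-13) that was 6.5, 6.63 and 5.91 in clusters 1, 2 and 3 alone. Its level in H1975 with PBS was at background, so the rise there is counted from a level that may not be measured.

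TRIB3, a pseudokinase induced by ATF4 and CHOP that restrains both, rose by 1.53 ± 0.27 in H1975 and fell by 2.42 ± 0.25 in H1299, with no overlap of PBS and Omomyc arrays in either line. ATF4 itself rose by 1.15 ± 0.19 in H1975, where PBS arrays lay between 12.03 and 12.36 and Omomyc arrays between 13.09 and 13.60. In H1299 its change of -0.43 ± 0.18 was not called (adjusted p = 0.147), and the difference between the responses was 1.59 ± 0.26 (adjusted p = 0.000148). DDIT4, an inhibitor of mTORC1 signalling, rose by 0.77 ± 0.23 in H1975 and fell by 2.36 ± 0.21 in H1299.

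In other members the response was called in H1299 and not in H1975. CHAC1, which degrades glutathione, was at 13.96, 13.73, 13.42, 13.20 and 13.29 in H1299 with PBS and at 9.14, 9.27, 9.65, 9.15 and 8.83 with Omomyc. In H1975 it was at 5.60, 6.51, 4.20 and 4.91 with PBS and at 4.96, 6.09, 6.63, 6.9 and 4.55 with Omomyc, with both group means at background. The fall in H1299 was by 4.31 ± 0.37, and the H1975 change of 0.52 ± 0.39 was not called. SESN2, a leucine sensor that inhibits mTORC1, fell by 3.29 ± 0.25 in H1299 and changed by 0.10 ± 0.26 in H1975 (adjusted p = 0.907). CEBPG, a C/EBP partner of ATF4 and another opposite gene, was at 8.37 in H1975 and 13.68 in H1299 with PBS, and at 9.65 and 11.91 with Omomyc. The called members JDP2 (2.91 ± 0.48) and CEBPB (1.91 ± 0.44) had differences above 0 too. So did NUPR1 and PPP1R15A, whose responses were called in H1975 and not in H1299. The calls of NUPR1 and PPP1R15A were lost when some 1 array was left out, and between 9 and 11 members were called in those fits. The other 4 measured members (ATF3, VLDLR, CEBPD and KLHL24) were not called, and ATF3 had the largest value of them at 2.62.

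Enzymes of amino acid and folate synthesis went the same way. Of 14 measured members 10 had a called difference in limma, 0 of them below 0 (11 and 0 at an unadjusted p under 0.05), and the list median was 2.24 (1.78, 2.30 and 2.25 in the clusters alone). In H1299 11 members fell and 1 rose, and in H1975 6 rose and 1 fell. With PBS 10 of the 14 were higher in H1299 and 0 in H1975, against 3683 and 3742 of all 17687 genes.

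PHGDH, the first enzyme of serine synthesis (TC0100009621.hg.1), was at 8.15, 8.42, 7.79 and 7.69 in H1975 with PBS and at 10.82, 9.93, 11.16, 10.99 and 10.31 with Omomyc. H1299 stood at 13.79, 14.70, 15.02, 14.25 and 13.94 with PBS and 11.57, 12.55, 12.33, 12.06 and 11.96 with Omomyc. Every H1299 array stayed above every H1975 array of the same treatment, but the distance shrank. The gap between the lines, H1975 minus H1299, was -6.33 ± 0.27 with PBS and -1.45 ± 0.26 with Omomyc, and the difference of the responses was 4.88 ± 0.38 (adjusted p = 4.85e-10).

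ASNS, which makes asparagine from aspartate (TC0700011876.hg.1), was at 9.38, 9.90, 10.13 and 8.99 in H1975 with PBS and at 11.21, 11.49, 11.89, 12.46 and 11.62 with Omomyc. The H1299 arrays read 14.97, 15.98, 15.88, 15.27 and 15.46 with PBS and 12.70, 13.62, 13.42, 13.12 and 12.68 with Omomyc. Here too the groups did not overlap, and the gap went from -5.92 ± 0.28 to -1.37 ± 0.26. The difference of 4.54 ± 0.38 (adjusted p = 2.71e-09) was 4.24, 4.58 and 5.09 in the clusters alone.

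Some enzymes changed their order between the lines instead of approaching each other. ALDH1L2, a mitochondrial folate enzyme, had a gap of -1.48 ± 0.24 with PBS and of 3.38 ± 0.23 with Omomyc, after a rise by 2.41 in H1975 and a fall by 2.45 in H1299. PCK2, the mitochondrial enzyme that makes phosphoenolpyruvate, went from -3.12 ± 0.27 to 1.19 ± 0.25. PSAT1, the second enzyme of serine synthesis, and CBS, which takes homocysteine to cystathionine, fell in H1299 by 2.37 and 2.26 and changed by 0.03 and 0.04 in H1975. The remaining called members were the folate enzymes MTHFD2 (2.29), MTHFD1L (2.19) and SHMT2 (1.46) and the proline enzyme PYCR1 (1.54), whose call was lost when some 1 array was left out. PSPH, CTH, GOT1 and ALDH18A1 were not called, with differences of 0.16 to 0.87.

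Among amino acid transporters 7 of 15 measured members had a called difference, 0 below 0 (7 and 0 at an unadjusted p under 0.05 in limma), with a list median of 0.29 (0.76, 1.04 and 0.47 in the clusters alone). In H1299 0 rose and 7 fell, and in H1975 4 rose and 2 fell. SLC7A11, the cystine importer xCT (TC0400011920.hg.1), was at 7.38, 7.38, 8.06 and 6.97 in H1975 with PBS and at 9.29, 9.56, 9.49, 9.42 and 9.50 with Omomyc. The H1299 values were 12.40, 12.06, 11.82, 12.37 and 12.89 with PBS and 9.20, 8.57, 8.65, 8.06 and 7.87 with Omomyc. All H1299 arrays were higher than all H1975 arrays with PBS, and all were lower with Omomyc. The difference of 5.85 ± 0.38 (adjusted p = 2.03e-11) was 5.24, 5.07 and 7.2 in the clusters alone.

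SLC7A5, the large neutral amino acid transporter LAT1, was at 12.66, 12.35, 12.27 and 12.16 in H1975 with PBS and at 13.77, 13.69, 13.57, 13.34 and 13.69 with Omomyc. For H1299 the values were 14.34, 14.40, 14.30, 14.07 and 14.31 with PBS and 10.93, 11.43, 10.81, 11.21 and 10.76 with Omomyc. The 4 groups did not overlap, and the order of the lines turned from a gap of -1.92 ± 0.17 to 2.59 ± 0.16 (difference 4.51 ± 0.24, adjusted p = 2.46e-13). SLC3A2, the heavy chain that carries both SLC7A5 and SLC7A11 to the cell surface, rose by 1.14 ± 0.20 in H1975 and fell by 0.97 ± 0.19 in H1299. The glutamine carrier SLC1A5 (2.13), the cationic amino acid carrier SLC7A1 (1.96), the glycine carrier SLC6A9 (1.98) and the neutral amino acid carrier SLC1A4 (1.63) were called too, and SLC1A4 lost its call when some 1 array was left out. The 8 uncalled members, among them SLC38A2 and SLC38A1, had differences of -0.78 to 0.29.

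The cytosolic aminoacyl-tRNA synthetases load amino acids onto tRNA, and 9 of 14 measured members had a called difference, 0 below 0 (9 and 0 at an unadjusted p under 0.05 in limma). All 9 remained called when any 1 array was left out, and the list median was 1.97 (1.67, 1.98 and 2.00 in the clusters alone). In H1975 8 rose and 1 fell, in H1299 0 rose and 9 fell, and 7 were opposite. AARS1, for alanine (TC1600010752.hg.1), was at 12.38, 12.28, 12.54 and 12.42 in H1975 with PBS and at 13.71, 13.80, 13.63, 13.48 and 13.70 with Omomyc. In H1299 it was at 14.08, 13.87, 13.77, 13.68 and 13.82 with PBS and at 12.47, 12.60, 12.45, 12.68 and 12.32 with Omomyc. The lines exchanged places: each with Omomyc was near the other with PBS, and the gap turned from -1.44 ± 0.15 to 1.16 ± 0.14.

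GARS1, for glycine, turned in the same manner from a gap of -1.12 ± 0.15 to 1.05 ± 0.14, and WARS1, for tryptophan, from -0.58 ± 0.16 to 1.97 ± 0.15. IARS1 (2.70), YARS1 (2.30), SARS1 (2.26), LARS1 (2.04), CARS1 (1.90) and EPRS1 (1.58) completed the called set. The 5 uncalled synthetases were NARS1 (0.80), TARS1 (0.58), KARS1 (0.08), HARS1 (-0.21) and RARS1 (-0.33). XPOT, which exports tRNA from the nucleus, was opposite as well, with a difference of 1.61 ± 0.33.

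**Figure D2:**
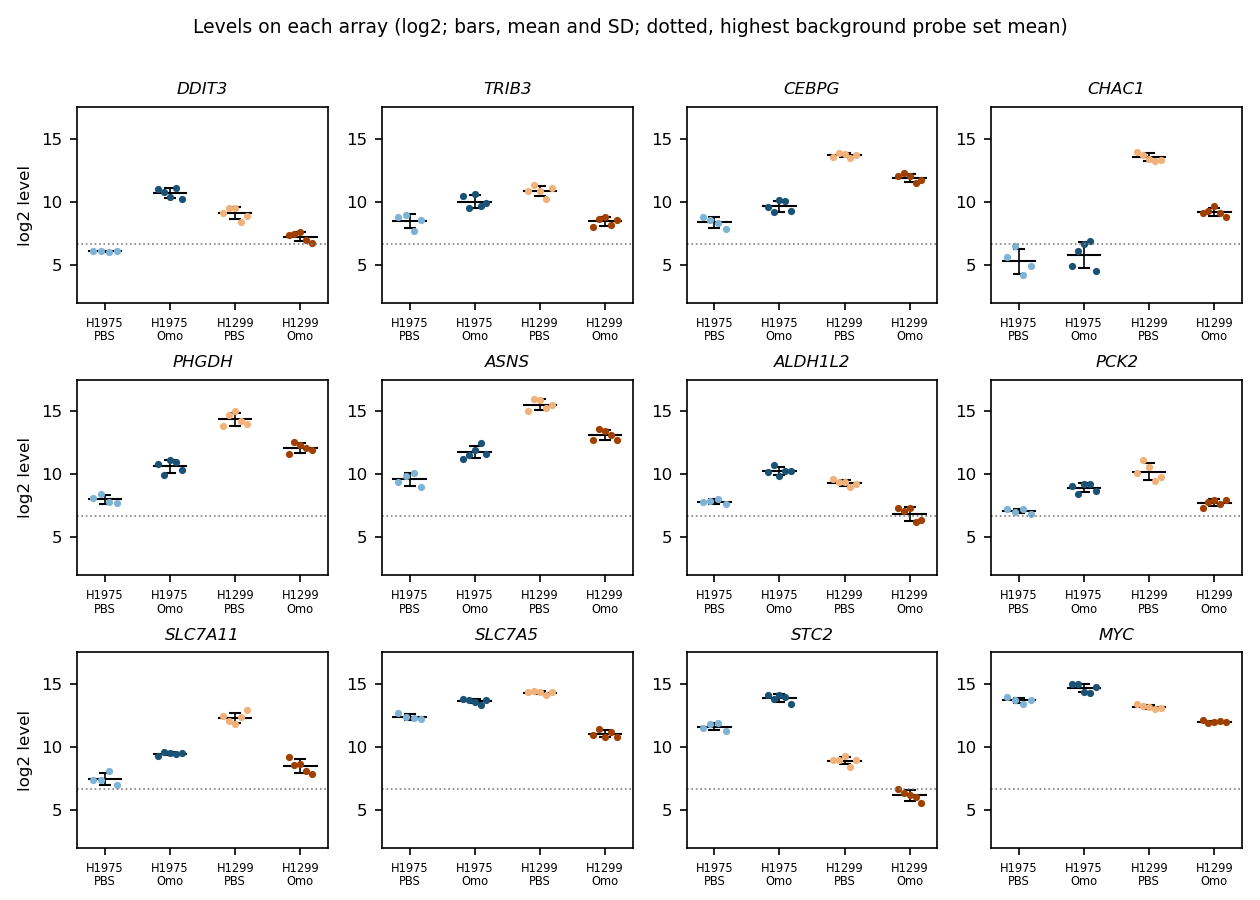
Level of 12 genes on each of the 19 arrays (vertical axis, log2; points, arrays; bars, mean and SD; dotted line, highest mean of a background probe set at 6.69). DDIT3, SLC7A11 and PHGDH rose in H1975 and fell in H1299, and CHAC1 fell in H1299 while H1975 stayed at background.

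Secreted stress factors differed by a few very large values: 4 of 10 measured members were called, all above 0 and all also called when any 1 array was left out, with a list median of 0.62. IL24, a cytokine of the IL-10 family (TC0100011391.hg.1), was at 3.92, 4.11, 3.75 and 4.56 in H1975 with PBS and at 11.05, 10.59, 10.14, 10.73 and 9.92 with Omomyc. Arrays of H1299 gave 4.71, 3.09, 4.41, 5.06 and 3.91 with PBS and 3.69, 4.20, 3.03, 2.90 and 3.50 with Omomyc. Only the H1975 Omomyc arrays were above background. The difference of 7.17 ± 0.49 (adjusted p = 4.34e-11) was the largest of all named genes, and its size depends on 3 groups that may not be measured.

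GDF15, a stress-induced hormone of the TGF-beta family (TC1900007384.hg.1), was at 7.78, 7.72, 6.89 and 7.22 in H1975 with PBS and at 13.07, 12.93, 12.03, 12.69 and 12.43 with Omomyc. The H1299 arrays read 7.79, 8.02, 7.93, 7.27 and 6.94 with PBS and 7.70, 7.09, 8.63, 7.49 and 7.11 with Omomyc. The lines overlapped with PBS, and H1975 alone responded, by 5.23 ± 0.40 against 0.01 ± 0.37 in H1299 (difference 5.22 ± 0.55, adjusted p = 1.91e-07). STC2, a secreted glycoprotein, was opposite: it rose by 2.26 ± 0.24 in H1975 and fell by 2.74 ± 0.22 in H1299. Its gap, already 2.68 ± 0.24 with PBS, became 7.68 ± 0.22 with Omomyc. VEGFA, the endothelial growth factor, rose by 1.11 in H1975 and fell by 1.18 in H1299. CXCL8, IL6, FGF21, ADM2, TNFRSF10B and INHBE were not called, with differences of -1.22 to 0.66.

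MYC itself was opposite. It was at 13.93, 13.68, 13.41 and 13.69 in H1975 with PBS and at 14.98, 14.94, 14.36, 14.26 and 14.70 with Omomyc. H1299 stood at 13.35, 13.20, 13.16, 12.96 and 13.07 with PBS and 12.10, 11.89, 11.96, 12.05 and 11.97 with Omomyc. The groups did not overlap in either line, and the lines stood 0.53 ± 0.20 apart with PBS and 2.65 ± 0.19 apart with Omomyc. The rise by 0.97 ± 0.20 and the fall by 1.15 ± 0.19 gave a difference of 2.12 ± 0.27 (adjusted p = 5.85e-06), which was 2.28, 2.02 and 2.01 in the clusters alone.

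MXD1, a MAX partner that represses MYC targets, was the other opposite member of the MYC network, with a rise by 1.32 ± 0.24 in H1975 and a fall by 0.75 ± 0.23 in H1299. ARRDC4, a target of the MAX-like protein MLX, fell by 2.29 in H1975 and changed by -0.21 in H1299, where it was at background. MAX fell in both lines, by 0.92 ± 0.23 in H1975 and 0.75 ± 0.22 in H1299, and the difference of -0.17 ± 0.31 was not called (adjusted p = 0.890). Of the 14 measured network members 2 were called above 0 and 1 below, and the list median of -0.053 changed sign between settings. Described MYC targets outside the network had 4 called above 0 and 1 below of 29, with a median of 0.18. Between 2 and 4 were called above 0 when 1 array was left out, where PAICS and GART, both enzymes of purine synthesis, lost their calls. In this list 13 members fell in H1299 (4.52% of all genes) against 6 in H1975 (6.28% of all genes). Nucleolar ribosome biogenesis genes had 3 called above 0 of 37 (median 0.36), but only DDX21, an RNA helicase, was called without each of the arrays in turn.

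Replication-dependent histones had 9 of 31 measured members called, 0 below 0 (17 and 0 at an unadjusted p under 0.05 in limma), with a median of 1.16. Between 7 and 10 were called when 1 array was left out, where H3C7 and H3C8 lost their calls. In H1299 21 members fell and 0 rose, and in H1975 1 fell. The linker histone H1-4 fell by 1.70 ± 0.34 in H1299 and changed by 0.99 ± 0.36 in H1975 (adjusted p = 0.0759), and the core histone H2BC8 by -2.70 and -0.04. The list median was 2.49 in cluster 2 but 0.56 and 0.55 in clusters 1 and 3, so its size moves with the cluster. These genes are near-identical copies of each other, and the arrays may not tell them apart. DNA replication genes fell in both lines, 19 of 39 in H1975 and 29 in H1299 (6.28% and 4.52% of all genes). A called difference above 0 was found for 4 (median 0.15, with either sign over the settings). Of these RFC3, a clamp loader subunit, was called without each of the arrays in turn, with a fall by 1.24 in H1299 and a change of -0.13 in H1975.

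Hypoxia-inducible genes had 7 of 20 members called, 0 below 0 (7 and 1 at an unadjusted p under 0.05 in limma), all of them also called when any 1 array was left out, and a median of 0.46. DDIT4, STC2 and VEGFA stand in the lists above too. ADM, a vasodilator peptide, rose by 3.38 ± 0.31 in H1975 and fell by 0.93 ± 0.29 in H1299, where PBS and Omomyc arrays overlapped and the group with Omomyc was at background. The gap of ADM was -0.40 ± 0.31 with PBS and 3.90 ± 0.29 with Omomyc. Glycolysis had 4 of 19 called above 0 (median 0.54, below 0 in cluster 1 alone at -0.032), and 2 to 5 when 1 array was left out, where PFKP and ALDOC lost their calls. The glucose carrier SLC2A1 rose by 1.42 ± 0.25 in H1975 and changed by -0.44 ± 0.23 in H1299, and hexokinase HK2 by 2.04 ± 0.32 and -0.71 ± 0.30. These 2 genes were at like levels in the lines with PBS, with gaps of 0.08 and -0.64 that were not called, and were higher in H1975 with Omomyc, by 1.94 and 2.11.

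Of 27 immediate early genes 5 were called above 0 and 1 below, with a median of 0.71. CCN1, a matrix protein, was at 11.28, 11.29, 11.89 and 11.56 in H1975 with PBS and at 13.37, 13.06, 13.20, 12.99 and 12.98 with Omomyc. In H1299 it was at 13.28, 14.57, 13.96, 14.05 and 14.37 with PBS and at 12.49, 13.15, 12.05, 12.03 and 11.92 with Omomyc. PBS and Omomyc arrays did not overlap in either line, and the difference was 3.33 ± 0.39 (adjusted p = 1.12e-06). RHOB, a small GTPase, was opposite with a difference of 3.25 ± 0.39. SIK1, a kinase, rose by 3.50 in H1975 from a background level of 6.30, and was at background in both H1299 groups.

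The endoplasmic reticulum response gave 5 called above 0 and 1 below of 27, and its median of -0.037 took either sign over the settings. Between 4 and 5 were called above 0 when 1 array was left out, where DNAJB9 lost its call. HERPUD1, which serves ER-associated degradation, rose by 1.91 ± 0.21 in H1975 and changed by -0.33 ± 0.20 in H1299. HSPA5, the chaperone BiP, rose by 1.26 ± 0.18 in H1975 and changed by -0.02 ± 0.17 in H1299. WFS1, an ER membrane protein, rose by 1.05 in H1299 and changed by -0.50 in H1975. Among p53 target genes 3 were called above 0 and 3 below of 22 (median -0.17). PHLDA3, XPC and TP53INP1 each lost the call in some fits without 1 array, so 3 of the 6 calls held in every such fit. GADD45A, a growth arrest gene, was opposite, with a rise by 2.52 ± 0.22 and a fall by 0.80 ± 0.21, and CDKN1A, the cell cycle inhibitor p21, rose in both lines by 1.63 and 1.10 with no called difference (0.54 ± 0.42).

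In lipid synthesis the called differences were below 0. Of 24 cholesterol and fatty acid genes 0 were called above 0 and 4 below (1 and 13 at an unadjusted p under 0.05 in limma), with a median of -0.75 (-0.84, -0.66 and -0.86 in the clusters alone). In H1299 15 rose and 0 fell, and in H1975 7 rose and 3 fell. The median response was above 0 in both lines, at 1.06 in H1299 and 0.26 in H1975. ELOVL6, a fatty acid elongase, was the 1 opposite member. It fell by 1.26 ± 0.21 in H1975 and rose by 0.67 ± 0.20 in H1299, and its gap of 1.59 with PBS was -0.34 with Omomyc. ACACA, the first enzyme of fatty acid synthesis, fell by 1.39 in H1975 and changed by 0.29 in H1299. FASN, the fatty acid synthase, rose by 0.78 in H1299 and changed by -0.70 in H1975, so that a gap of -3.48 became -4.96. SC5D, a late cholesterol enzyme, rose by 1.49 in H1299 and changed by -0.04 in H1975. Between 4 and 8 members were called below 0 when 1 array was left out.

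**Figure D3:**
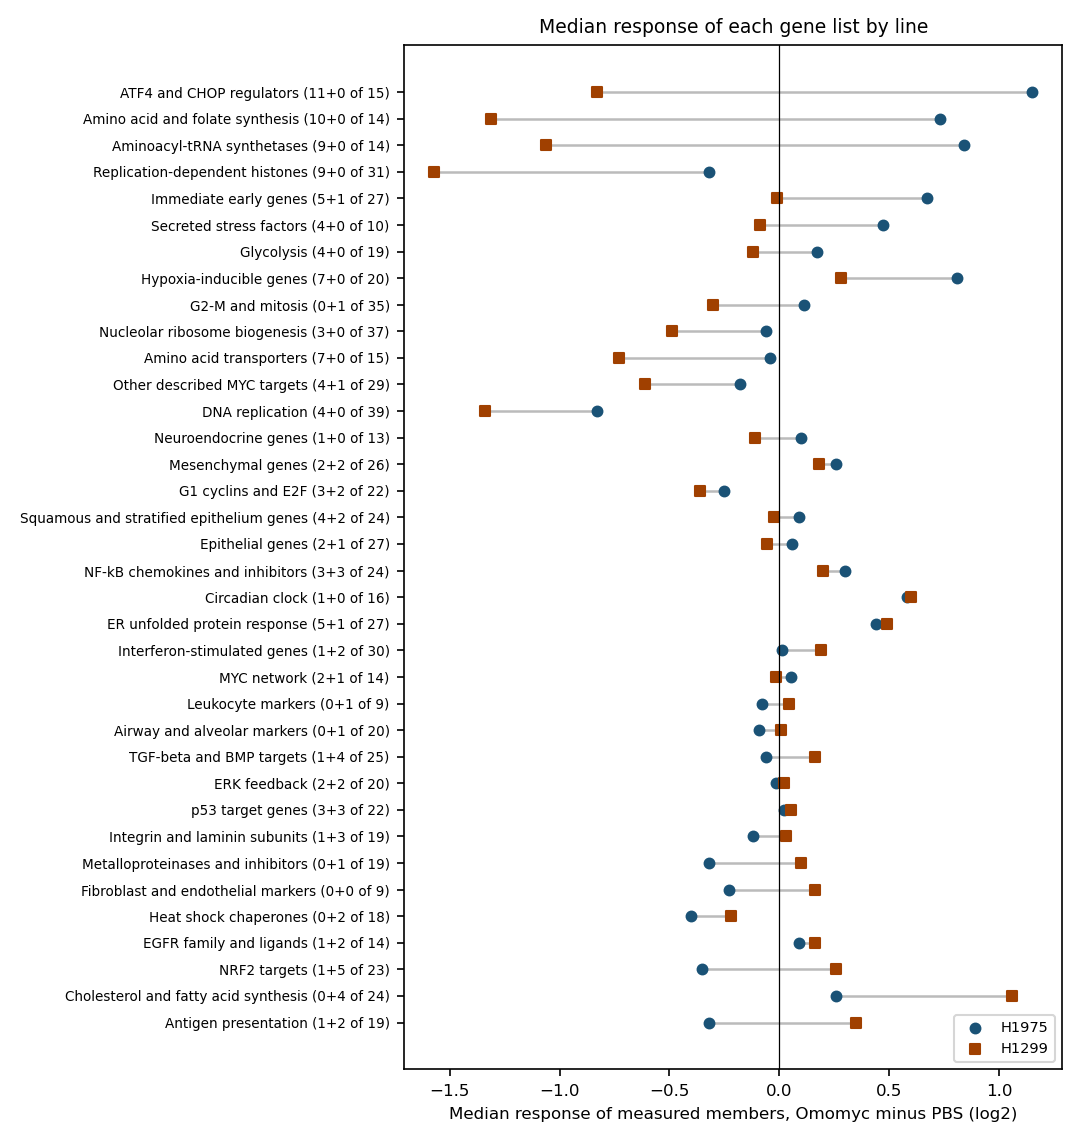
Median response of the measured members of each of 36 gene lists in H1975 (circles) and H1299 (squares), log2 Omomyc minus PBS on the horizontal axis; the brackets after each name give the members called above 0 plus those called below 0 of those measured. The circles of the ATF4 and CHOP regulators, the amino acid and folate enzymes and the tRNA synthetases lie above 0 and their squares below 0.

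The 3 named genes with the most negative differences, BMP4, SLITRK6 and DIO2, were well above background in H1975 with PBS and at background in both H1299 groups. BMP4, a bone morphogenetic protein (TC1400009214.hg.1), was at 14.58, 14.22, 14.40 and 14.35 in H1975 with PBS and at 8.89, 8.82, 10.26, 9.51 and 8.70 with Omomyc. The H1299 arrays read 6.95, 6.18, 6.03, 6.42 and 5.88 with PBS and 6.17, 7.41, 6.40, 6.15 and 6.95 with Omomyc. It fell by 5.15 ± 0.29 in H1975, and the gap shrank from 8.09 ± 0.29 to 2.62 ± 0.27 (difference -5.48 ± 0.39, adjusted p = 1.26e-10). For a gene at background in H1299 a fall there could not be seen, so the difference describes H1975.

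SLITRK6, a neuronal membrane protein, fell by 5.34 ± 0.27 in H1975, from 10.43 ± 0.31 to 5.09 ± 0.58, which is at background. DIO2, which activates thyroid hormone, fell by 4.50 ± 0.27 there, and ITGB8, an integrin that activates TGF-beta, by 3.36. CYP4X1, NANOS1 and LYPD1 were of the same kind, with falls by 3.70, 3.58 and 3.02 in H1975. The last 4 genes were at background in both H1299 groups too. In the opposite sense LTF (lactoferrin) rose by 4.36 ± 0.32 in H1975 from a background level and stayed at background in H1299. SNAI2, a mesenchymal transcription factor, rose by 2.85 ± 0.32 in H1975 to 15.16 ± 0.60 and was at background in H1299.

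Among genes that fell in H1975 and rose in H1299, ARRB1, the signalling adaptor beta-arrestin 1 (TC1100011643.hg.1), was at 12.62, 12.87, 13.04 and 11.87 in H1975 with PBS and at 9.80, 9.76, 10.40, 9.92 and 9.68 with Omomyc. Arrays of H1299 gave 8.53, 8.85, 8.77, 8.07 and 8.17 with PBS and 9.79, 9.93, 10.13, 9.69 and 10.09 with Omomyc. The lines were far apart with PBS and overlapped with Omomyc. Its gap went from 4.12 ± 0.23 to -0.02 ± 0.22, and the difference of -4.14 ± 0.32 (adjusted p = 5.51e-10) was -4.10, -4.02 and -3.97 in the clusters alone.

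KLF5, an epithelial transcription factor, met in the middle as well, with a gap of 2.64 ± 0.27 with PBS and -0.60 ± 0.26 with Omomyc, where the lines overlapped. The Wnt receptor FZD4 had gaps of 3.05 and 0.39, the estrogen receptor GPER1 of 3.92 and 1.06, and DPYSL2, a regulator of microtubules, of 3.91 and 1.01. FZD4 and GPER1 were at background in H1299 with PBS. Others moved apart. CASTOR2, a relative of the arginine sensor of mTORC1, was at 9.80, 10.25, 9.77 and 9.12 in H1975 with PBS and at 6.80, 6.80, 7.04, 7.24 and 7.28 with Omomyc. In H1299 it was at 10.46, 10.14, 10.60, 10.39 and 10.54 with PBS and at 12.03, 11.65, 11.79, 11.51 and 11.41 with Omomyc. The arrays of the lines overlapped with PBS, but a gap of -0.69 ± 0.21 was already called there, with H1299 the higher. With Omomyc the gap was -4.65 ± 0.20. S1PR1, a sphingosine phosphate receptor, went from a gap of -1.48 ± 0.25 to -5.35 ± 0.23, and SYNM, an intermediate filament protein, from -1.08 ± 0.38 to -5.11 ± 0.36, both reaching background in H1975. VAMP1, a vesicle fusion protein, went from -1.68 to -4.11, and was at background in H1975 with either treatment.

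**Figure D4:**
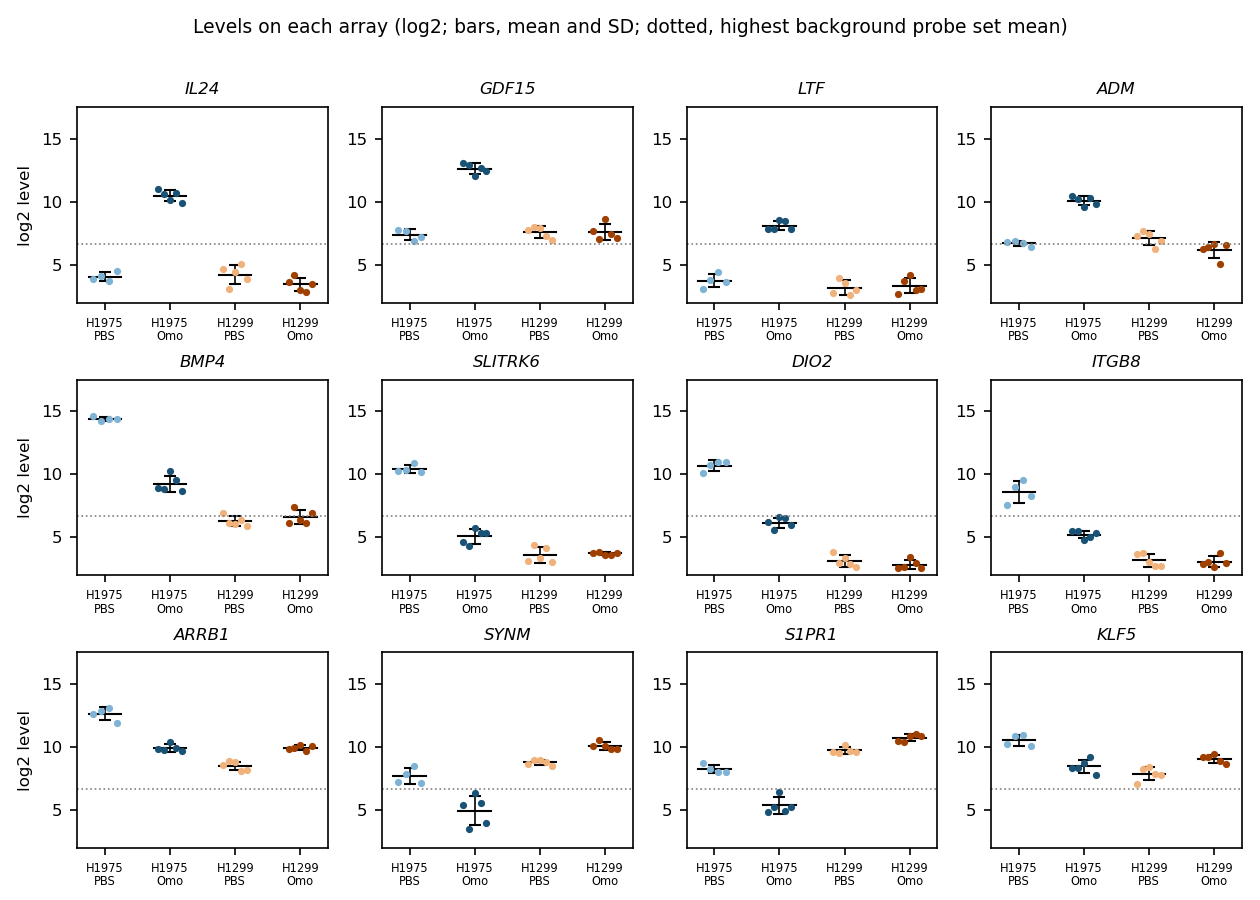
Level of 12 genes on each of the 19 arrays (vertical axis, log2; points, arrays; bars, mean and SD; dotted line, highest mean of a background probe set at 6.69). BMP4, SLITRK6, DIO2 and ITGB8 fell in H1975 and were near or below the dotted line in H1299, and ARRB1 and KLF5 approached each other with Omomyc while S1PR1 and SYNM moved apart.

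Over all genes the size of the gap between the lines hardly differed between PBS and Omomyc on the values as deposited. The gap was called for 7425 genes with PBS (42.0%) and for 7816 with Omomyc (44.2%), and these 2 counts come from separate arrays. The PBS gap sets 4 arrays against 5 and has the larger standard error, for DDIT3 0.25 against 0.23 with Omomyc. Counts of called gaps and median sizes of the gap with PBS and with Omomyc are thus not on equal terms, here and below. The median size of the gap was 0.502 with PBS and 0.503 with Omomyc, a change smaller than the SD over arrays of 0.014 and 0.015, and it was narrower with Omomyc for 8869 genes and wider for 8818. Other settings gave a change beyond that SD in either direction: medians of 0.539 and 0.518 with arrays centred, and of 0.817 and 0.849 without genes under the 30th percentile of level. Among the 1009 genes it was narrower for 482 and wider for 527, with medians of 1.40 and 1.58. The gap of 195 of them was called with PBS alone, that of 260 with Omomyc alone, and that of 554 with both, 66 of which had the order of the lines turned.

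The 2 classes of opposite genes started from different sides. Of the 62 opposite genes that rose in H1975, 40 were higher in H1299 and 9 higher in H1975 with PBS, and with Omomyc 9 were higher in H1299 and 40 in H1975. In 18 of them the gap was called with both treatments and the order turned. Of the 36 that fell in H1975, 17 were higher in H1975 and 7 in H1299 with PBS, against 4 and 25 with Omomyc. Each of these changes of order contains the response that chose the genes, so the counts are a description with no test. Over all 17687 genes 3683 were called higher in H1299 and 3742 in H1975 with PBS, and 3839 and 3977 with Omomyc.

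By list, most tRNA synthetases and most amino acid and folate enzymes came closer, against 8869 of 17687 over all genes. The median size of the gap went from 1.31 to 0.52 over the synthetases (12 of 14 narrower) and from 2.20 to 0.72 over the enzymes (11 of 14 narrower). Over the ATF4 and CHOP regulators it went from 3.01 to 1.98, but 9 gaps narrowed and 6 widened, a split near that of all genes, and the gap of DDIT3 was larger with Omomyc in the other direction. Of the secreted stress factors 5 gaps narrowed and 5 widened, as over all genes, and the median size went from 0.61 to 2.12, with large increases in IL24, GDF15 and STC2. Of these IL24 and STC2 were at background in H1299 with Omomyc. Cholesterol and fatty acid genes went from 1.11 to 1.54, with 17 of 24 wider.

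**Figure D5:**
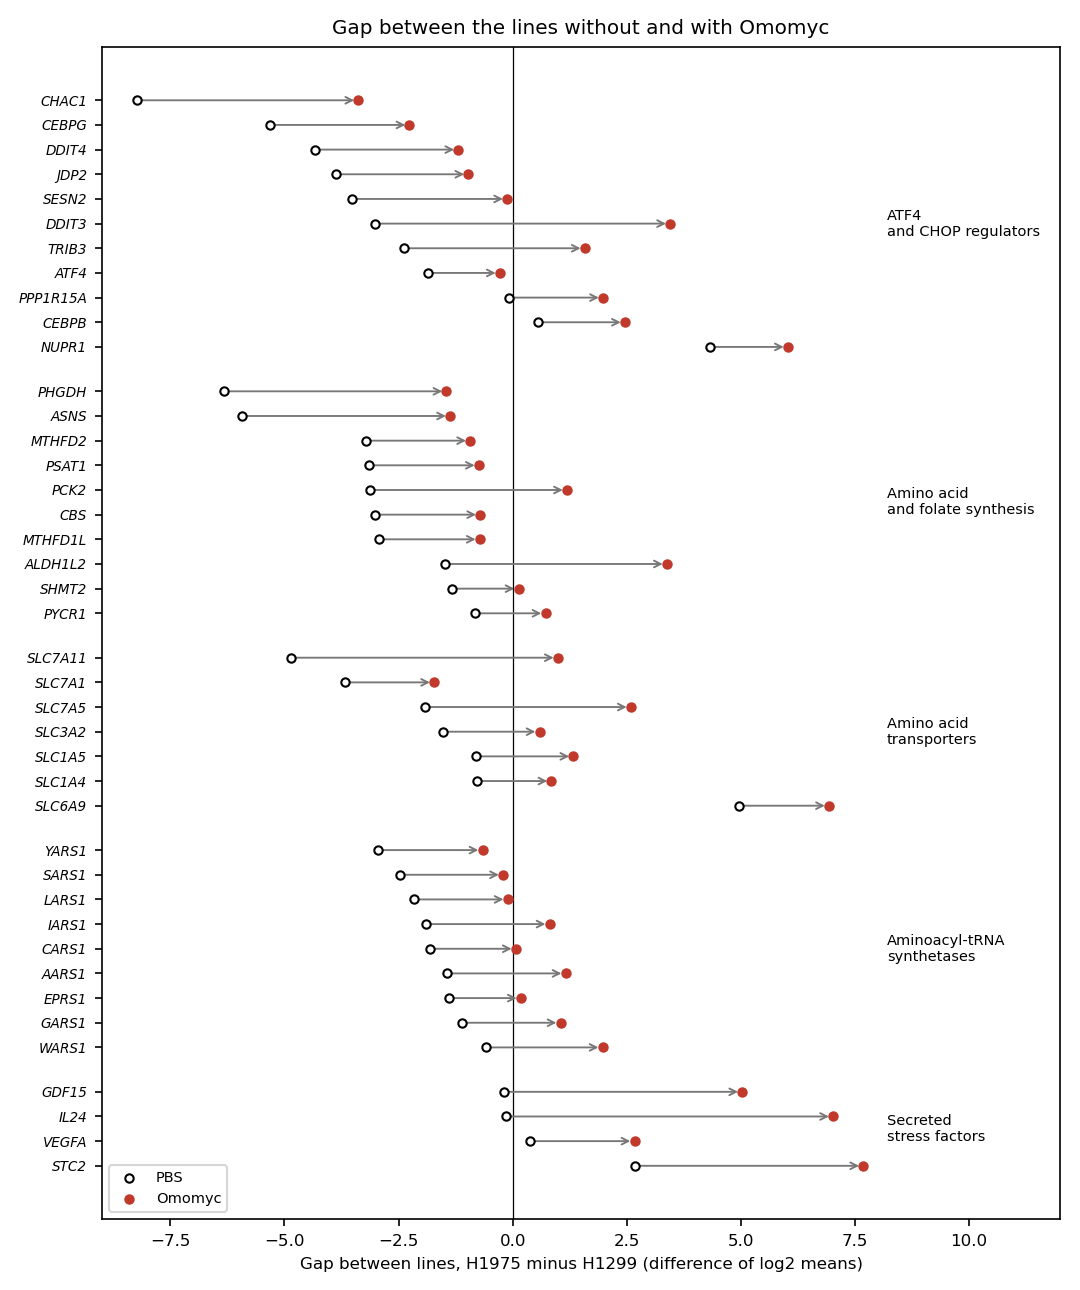
Gap between the lines (H1975 minus H1299, difference of log2 means, horizontal axis) with PBS (open circles) and with Omomyc (red) for the called members of 5 lists. Most genes of the upper 4 lists start below 0 and end nearer to it or above it, whereas IL24, GDF15 and STC2 end at 7.02, 5.03 and 7.68. In H1299 with Omomyc IL24 and STC2 were at background.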

How the data were processed

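RNA of 26 samples was measured on human gene expression microarrays, and 19 arrays belong to H1975 and H1299. The authors deposited log2 values, made with RMA and Partek per the submitters' processing notes. Not given in the sources used here are versions, a genome build and whether all arrays were normalized together. The table holds 24351 features, with values from 1.35 to 19.91. Of these 17709 had 1 gene symbol and 6642 none. Where a gene had several probe sets (20 genes) that of highest mean stood for it, which left 17687 genes. No read depth exists for arrays, and their number limits the precision.

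One limma model (version 3.58.1, R 4.3.3) was fitted with a coefficient per group on all 26 arrays, without a block, followed by eBayes and Benjamini-Hochberg adjustment over all genes. The response difference shares its arrays with both responses and both gaps, while the 2 responses share none with each other. On simulated data for this difference, with 17687 genes and 100 changed at each size, 77% of changes of 2 and 15% of changes of 1 on the log2 scale were recovered, with 1 false call. Clusters were found by average linkage of each array's sorted values.

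Genes were named by a rule: among called genes with a group mean over 6.48, the 12 largest and 12 smallest differences, 8 opposite genes per direction, the 8 gaps that narrowed and the 8 that widened most, up to 3 called members per direction of each of 36 lists, and 14 fixed genes, of which 12 were measured. Other list members were named after their values were seen, to account for a list. The members and lists were chosen with earlier results of these data known. Of the 823 listed genes 745 were measured. Alternatives changed the normalization, centring, cluster, replicate block, filter, probe set rule, arrays fitted, variance prior, array weights and threshold, and left out each array in turn.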

Additional observations from a re-analysis of the deposited data

Results flagged for a closer look

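The interaction test found that the response differed between H1975 and H1299 for 1009 genes and ran in opposite directions for 98. Single arrays stood apart from their group by Dixon's criterion in 7 of 260 groups of arrays examined, for 29 genes and 36 list means, and chance gives about 1 in 20. ADM was at 5.06 on H1299 Omomyc replicate 4, against 6.24 to 6.67 on the other arrays of the group. S1PR1 was at 6.46 on H1975 Omomyc replicate 3, against 4.87 to 5.27, and at 10.15 on H1299 PBS replicate 3, against 9.54 to 9.70. The mean level of the secreted stress factors was 7 on H1975 PBS replicate 2, against 6.63 to 6.67. On H1975 Omomyc replicate 5 the mean of the endoplasmic reticulum list was 11.5, against 11.87 to 11.99, and that of the cholesterol and fatty acid list 10.93, against 11.35 to 11.44. The latter list was at 10.61 on H1975 PBS replicate 4, against 11.03 to 11.09.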

How the results depend on the processing

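Quantile normalization gave 1593 called differences and 157 opposite genes. The cluster as a block gave 2077 differences, 3400 and 2812 responses in H1975 and H1299, and 219 opposite genes. Cluster 1 alone gave 113, 1018, 81 and 5 of these, cluster 2 alone 509, 1047, 523 and 42, and cluster 3 alone 345 differences, 780 H1975 responses and 28 opposite genes. A cluster alone has fewer arrays. The median gaps with PBS and Omomyc were 0.652 and 0.614, 0.577 and 0.576, and 0.573 and 0.592 in clusters 1, 2 and 3, and 0.817 and 0.849 without genes under the 30th percentile of level. Centring each array gave median gaps of 0.539 and 0.518, and the called differences were then 685 above and 585 below 0. An adjusted p under 0.01 left 523 differences, 1194 and 886 responses and 47 opposite genes, and a change of at least 1 left 1244 and 804 responses and 42 opposite genes. Without each array in turn there were 837 to 1005 differences, 1627 to 2114 and 1272 to 1657 responses, 6953 to 7503 and 7431 to 7844 gaps and 79 to 102 opposite genes, with median gaps of 0.502 to 0.526 and 0.503 to 0.520. The cause of the other changes was not tested.

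Same-numbered arrays correlated at 0.259 to 0.389 in H1299, where each pair lies in 1 cluster, and at -0.196 to 0.331 in H1975, so the numbers were not taken to pair the samples. The replicate block gave 1467 differences, and with the cluster as well 954, with 1245 and 2622 responses.

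Of 127 named genes that were called, 25 were not called in at least 1 of the fits that left out an array. The sign turned only in uncalled genes: VIM was at 0.07 in cluster 1, MNT at -1.12 in cluster 2 and -0.15 with the replicate and cluster blocks, MAX at 0.01 in cluster 3, and CDH1 at -0.10 in cluster 3, -0.47 with both blocks and -0.14 to 0.25 when single arrays were left out.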

Other observations

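Several genes of signalling and immunity had a called response in H1975 alone. AKR1C3, a steroid and aldehyde reductase regulated by NRF2, fell by 2.30 ± 0.22 in H1975 and was at background in H1299. Of 23 NRF2 targets 5 were called below 0 and 1, SLC7A11, above 0 (10 and 1 at an unadjusted p under 0.05 in limma), with a median of -0.48 that stayed below 0 in every setting tried. GCLM lost its call in some fits without 1 array. Among TGF-beta and BMP targets 1 of 25 was called above 0 and 4 below, including the receptor TGFBR2, which fell by 1.52 ± 0.18 in H1975 and changed by 0.41 ± 0.17 in H1299. The cell cycle gene CCND1 fell by 1.97 ± 0.20 in H1975 and changed by -0.14 ± 0.18 in H1299, and the list of G1 cyclins and E2F genes had 3 called above 0 and 2 below of 22. CD14, an endotoxin co-receptor and leukocyte marker, fell by 2.91 ± 0.33 in H1975 from 11.08, while PTPRC, CD3E and LYZ were at background there. In both H1299 groups CD14 was at background, so a fall there could not be seen. It was the 1 called member of 9 leukocyte markers, and 0 of 9 fibroblast and endothelial markers were called in limma, with 0 above and 1 below at an unadjusted p under 0.05.

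Other genes had a called response in H1299 and not in H1975. CSF1, the macrophage growth factor, rose by 2.02 ± 0.24 in H1299 and changed by 0.11 ± 0.25 in H1975, and ITGA10, a collagen-binding integrin, rose by 2.42 ± 0.26 and changed by -0.19 ± 0.28, at background in H1975. CD274, the checkpoint ligand PD-L1, fell by 1.12 ± 0.20 in H1299 and changed by 0.56 ± 0.21 in H1975. In H1299 it was at 6.67 with PBS and 5.54 with Omomyc, both background, so that fall lies between levels that may not be measured. EGFR fell by 0.81 ± 0.19 in H1299 and changed by 0.32 ± 0.20 in H1975.

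Antigen presentation genes had the most negative median of the 36 lists, -0.84, which lay between -0.998 and -0.756 over the settings tried. Of 19 measured members 1 was called above 0 and 2 below, and 1 and 9 passed an unadjusted p under 0.05 in limma. Without the share of all genes at that threshold, the count of 9 is not read as a result. HLA-E and B2M, which rose by 1.16 and 0.89 in H1299 and changed by 0.14 and -0.13 in H1975, each lost the called difference in 5 of the fits without 1 array.

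Over all genes 2.61% were called above 0 and 3.09% below, and single calls are not read as a result about a list. In the remaining lists the members called above and below 0 were 3 and 3 of 24 for NF-kB chemokines and inhibitors, and 1 and 2 of 30 for interferon-stimulated genes. They were 2 and 2 of 20 for ERK feedback, 1 and 2 of 14 for the EGFR family, 0 and 2 of 18 for heat shock chaperones and 0 and 1 of 35 for G2-M and mitosis. For epithelial genes they were 2 and 1 of 27, for mesenchymal genes 2 and 2 of 26, and for squamous genes 4 and 2 of 24. Airway and alveolar markers had 0 and 1 of 20, neuroendocrine genes 1 and 0 of 13, integrin and laminin subunits 1 and 3 of 19, metalloproteinases and inhibitors 0 and 1 of 19, and circadian clock genes 1 and 0 of 16. Single calls in these lists that were lost in at least 1 fit without an array were those of NR1D1 (15 such fits), CDC25B (13), ITGA6 (11), TIMP1 (10), LAMC1 (10), UCHL1 (8), LRIG3 (4), DNAJB4 (3), TAGLN (2), KLK6 (1) and NFKB2 (1). In the lists named earlier ID2 (7), CCNE1 (5) and CCND3 (1) were lost in the same way.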
